A study of Homo sapiens with 8 samples.

Results

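Transcripts of 44 genes of glycolysis and of the hypoxia response were followed in LY2 cells, a breast cancer line derived from MCF-7 that is resistant to endocrine therapy. The 44 genes were chosen by symbol from a list of glycolytic enzymes, their transporters and regulators, the subunits and regulators of hypoxia-inducible factor (HIF), and HIF targets. They are 44 of the 63677 genes in the table. A gene was tested if 4 or more of the 8 libraries held 10 or more normalized reads (reads divided by the size factor of the library), and 41 of the 44 were among the 19559 genes that met this minimum. The tested cells (shSRC1, 4 libraries) stably carried short hairpin RNA against NCOA1, which encodes the nuclear receptor coactivator SRC-1, and the comparison cells (shNT, 4 libraries) a non-targeting hairpin. Both were grown under 500 ng/mL puromycin in medium with 4-hydroxytamoxifen, the active metabolite of tamoxifen, were steroid-depleted over 72 h and treated with 4-hydroxytamoxifen in the last step, for 8 h. No library came from cells without 4-hydroxytamoxifen, and the labels name no change in oxygen or glucose. They do not say how many hairpins or clones were used, or whether replicates were separate cultures, so the error behind each p-value is that between libraries and may be technical.

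Depth was 33771775 reads in shSRC1 replicate 2, 65321247 to 66248960 in the other shSRC1 libraries and 58459196 to 67022036 in the shNT libraries. The targeted gene NCOA1 had 1927, 1895, 2215 and 2107 normalized reads in shSRC1 replicates 1 to 4, against 4381, 4212, 4467 and 4525 in shNT replicates 1 to 4, and the groups did not overlap. On the log2 scale NCOA1 fell by 1.11 (SE 0.08, limma adjusted p = 2.25e-07). The 8 luminal markers summed to 513845 to 583254 normalized reads in shSRC1 and 340043 to 416533 in shNT. KRT8, KRT18 and KRT19 rose by 0.68, 0.47 and 0.68 on the log2 scale (limma adjusted p = 9.58e-04, 0.00733 and 6.09e-04), and the other 5 did not pass, with log2 fold changes of 0.19 for GATA3, 0.11 for CDH1, -0.07 for FOXA1, -0.13 for ESR1 and -0.16 for EPCAM. Markers of fibroblasts summed to 1452 to 1978 in shSRC1 and 1634 to 2189 in shNT, nearly all of it COL1A1. Those of leukocytes summed to at most 77.0 and 100.3, and those of endothelium to at most 299 and 292, with MS4A1 and PECAM1 at 0 in every library. Only 5 of 8 fibroblast, 2 of 8 leukocyte and 2 of 6 endothelial markers had enough reads to be tested. None of those tested passed the threshold, and all had negative log2 fold changes.

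Glycolysis splits glucose into pyruvate, with an investment phase in which hexokinase and phosphofructokinase spend ATP. A payoff phase, run by enzymes from GAPDH to pyruvate kinase, returns ATP and NADH. Triosephosphate isomerase (TPI1), which ends the investment phase, is grouped below with the payoff genes. HIF is a pair of an oxygen-regulated alpha subunit, HIF-1α (HIF1A) or HIF-2α (EPAS1), and the constitutive beta subunit ARNT. When oxygen is present, the prolyl hydroxylases EGLN1, EGLN2 and EGLN3 mark the alpha subunit for VHL, the recognition subunit of a ubiquitin ligase; when it is scarce, HIF switches on genes of glucose uptake, glycolysis, mitophagy and angiogenesis, among them EGLN3 itself.

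Of the 41 tested genes, 2 were higher in shSRC1 (PGK1 and EGLN3), 2 were lower (EPAS1 and BNIP3) and 37 did not pass a limma adjusted p of 0.05. Over all 19559 genes tested, 23.2% passed, 12.0% higher and 11.2% lower, and among the members 9.76% passed. With no filter on low values, 38332 genes entered the fit and that order turned, with 13.6% of the members called beside 9.90% of all genes. With a minimum of 50 normalized reads the order held, with 9.76% of the members called beside 28.2% of 15236 genes. The members had a median log2 fold change of 0.05, against -0.00 over all genes tested. The groups did not overlap in 13 of the 41 (31.7%), beside 29.0% of all tested genes, and 11 of the 41 (26.8%) had an unadjusted p under 0.05, beside 37.6% of all. PGK1, EGLN3, EPAS1 and BNIP3 kept their calls in all 19 alternative settings tried, and the number of members called ran from 4 to 10 across them. The share of all genes called ran from 9.90% to 32.7%. In bulk RNA, fewer cells that make a transcript and less transcript per cell cannot be told apart.

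**Figure D1:**
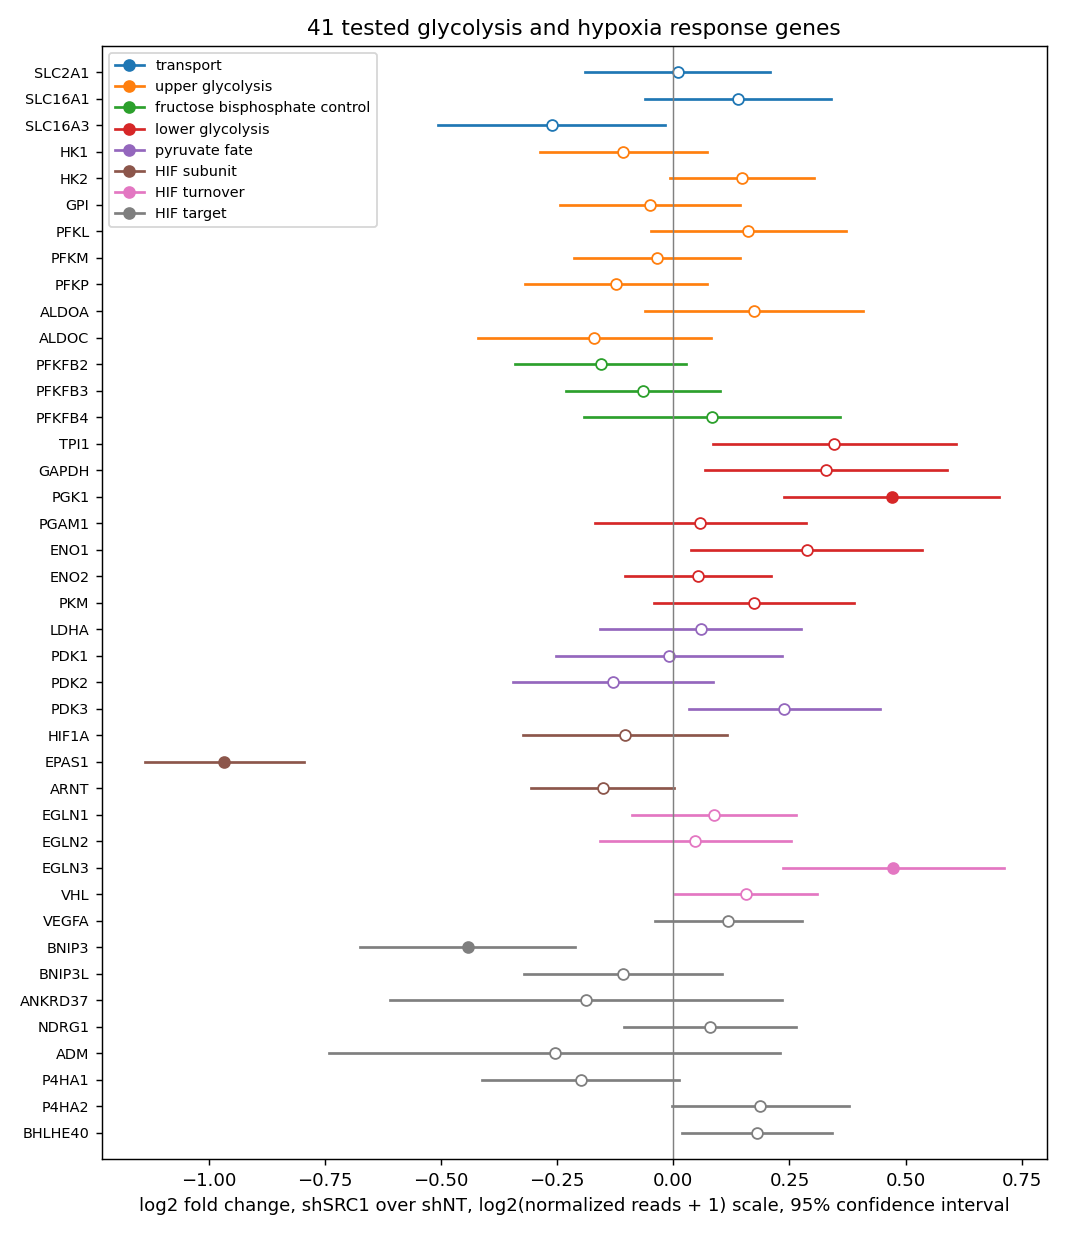
Log2 fold change (shSRC1 over shNT) of the 41 tested genes with 95% confidence intervals from limma, coloured by role; filled points passed an adjusted p of 0.05. EPAS1 stands alone at -0.97, BNIP3 lies at -0.44, and PGK1 and EGLN3 lie near 0.47. All 7 genes grouped as payoff phase, TPI1 included, lie above 0.

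The largest change was in EPAS1 (ENSG00000116016, chromosome 2), which encodes HIF-2α, the alpha subunit known for regulating erythropoietin and vascular genes. EPAS1 had 906, 845, 849 and 811 normalized reads in shSRC1 replicates 1 to 4, against 1746, 1634, 1660.0 and 1624 in shNT replicates 1 to 4. Every shSRC1 library lay far below every shNT library, and the spread within each group was small. EPAS1 averaged 853 ± 39.3 in shSRC1 and 1666 ± 55.7 in shNT (SD, n = 4 each), and fell by 48.8%. EPAS1 had a log2 fold change of -0.97 (SE 0.08, 95% confidence interval -1.14 to -0.80, limma adjusted p = 1.21e-06). An exact two-sided permutation test gave 0.0286, and no smaller p can be had from 4 against 4 libraries. Only 472 of the 19559 tested genes, or 2.41%, had a log2 fold change as low or lower. Over the 19 alternatives its log2 fold change ran from -1.004 to -0.9425.

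HIF1A (ENSG00000100644, chromosome 14), the alpha subunit that drives most glycolytic HIF targets, had 3819, 3938, 4694 and 4951 normalized reads in shSRC1 replicates 1 to 4, against 4121, 4405, 5168 and 4972 in shNT replicates 1 to 4. Within each group replicates 3 and 4 were the higher ones, and the groups overlapped. It had a log2 fold change of -0.10 (SE 0.10, 95% confidence interval -0.32 to 0.12, limma adjusted p = 0.480), and it was 0.06 with values corrected for transcript length and GC content. ARNT (ENSG00000143437, chromosome 1), the shared beta subunit, had 5419, 5243, 5086 and 5199 normalized reads in shSRC1 replicates 1 to 4, against 5765, 5895, 5611 and 6002 in shNT replicates 1 to 4. All shSRC1 libraries lay below all shNT libraries, though the log2 fold change of -0.15 (SE 0.07, 95% confidence interval -0.31 to 0.00) did not pass the threshold (limma adjusted p = 0.137). ARNT passed it in 2 of the 19 alternatives, DESeq2 on recovered reads and the correction for length and GC content.

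Counted per kb of exon, which allows genes to be compared, HIF1A stood at 845 normalized reads per kb in shSRC1 and 906 in shNT, ARNT at 804 and 893, and EPAS1 at 117 and 228. EPAS1 thus made up 14.3%, 13.1%, 11.3% and 10.4% of the HIF1A and EPAS1 reads per kb in the shSRC1 libraries, against 23.0%, 20.7%, 18.5% and 18.7% in the shNT libraries. The means were 12.3% ± 1.79 in shSRC1 and 20.2% ± 2.11 in shNT, and the groups did not overlap. EPAS1 per HIF1A was 14.0% ± 2.33 in shSRC1 and 25.4% ± 3.36 in shNT (SD, n = 4 each). HIF1A was the more abundant alpha subunit transcript in every library.

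**Figure D2:**
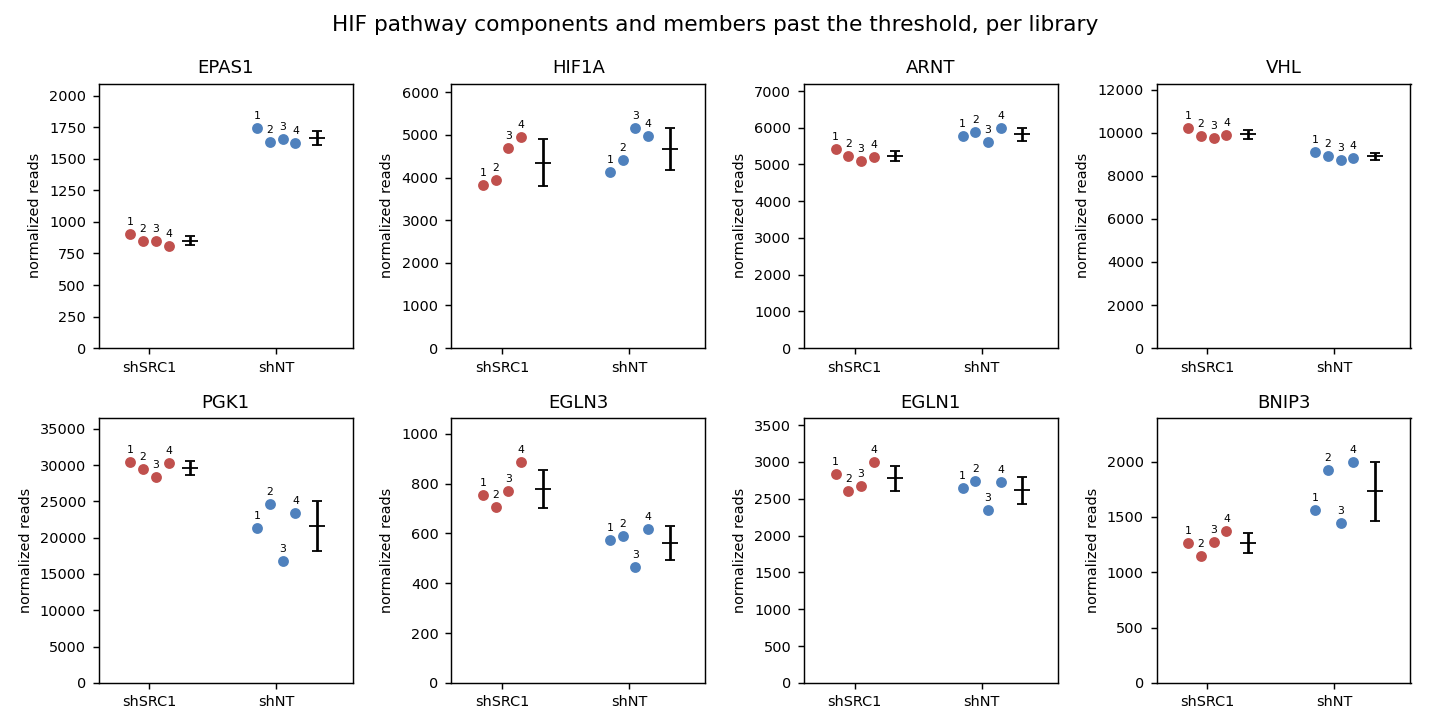
Normalized reads in each library (points, numbered by replicate) with mean ± SD for HIF subunits (EPAS1, HIF1A, ARNT), regulators of their turnover (VHL, EGLN1, EGLN3) and the called genes PGK1 and BNIP3. EPAS1, ARNT and BNIP3 lie lower and VHL, PGK1 and EGLN3 higher in every shSRC1 library than in any shNT library, while HIF1A and EGLN1 overlap.

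The 4 genes that turn HIF-α over had positive log2 fold changes, and 1 passed the test. EGLN3 (ENSG00000129521, chromosome 14), a prolyl hydroxylase that HIF itself induces, had 755, 705, 772 and 885 normalized reads in shSRC1 replicates 1 to 4, against 575, 589, 464 and 619.9 in shNT replicates 1 to 4. Each shSRC1 value exceeded each shNT value, with shSRC1 replicate 4 highest and shNT replicate 3 lowest. It averaged 779 ± 76.2 in shSRC1 and 562 ± 67.9 in shNT (SD, n = 4 each), a rise of 38.9%. EGLN3 had a log2 fold change of 0.47 (SE 0.11, 95% confidence interval 0.24 to 0.71, limma adjusted p = 0.00780; exact permutation p = 0.0286), and 0.38 without shNT replicate 3.

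EGLN1 (ENSG00000135766, chromosome 1), the main oxygen sensor of HIF-1α, had 2838, 2603, 2671 and 2993 in the shSRC1 libraries, against 2647, 2735, 2347 and 2727 in the shNT libraries, and EGLN2 (ENSG00000269858, chromosome 19), the hydroxylase known as estrogen-inducible in breast cancer cells, had 835, 765, 689.7 and 663 in the shSRC1 libraries, against 726, 684, 736 and 699 in the shNT libraries. Both overlapped between groups. Their log2 fold changes were 0.09 (SE 0.08, limma adjusted p = 0.460) for EGLN1 and 0.05 (SE 0.10, limma adjusted p = 0.747) for EGLN2, which was -0.01 without shSRC1 replicate 1. VHL (ENSG00000134086, chromosome 3) had 10234, 9841, 9769.9 and 9872 normalized reads in shSRC1 replicates 1 to 4, against 9098, 8935, 8742 and 8846 in shNT replicates 1 to 4. Every shSRC1 library was above every shNT library by a small margin, and the log2 fold change of 0.16 (SE 0.07, 95% confidence interval 0.00 to 0.31) missed the threshold with a limma adjusted p of 0.123. Within the EGLN family, EGLN3 made up 17.6% ± 1.16 in shSRC1 and 14.0% ± 0.943 in shNT of the reads per kb, without overlap, and EGLN1 63.6% ± 1.03 in shSRC1 and 66.1% ± 0.958 in shNT, with overlap.

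Among the 10 HIF targets, 9 were tested, and BNIP3 alone passed. BNIP3 (ENSG00000176171, chromosome 10), a mitophagy receptor of the outer mitochondrial membrane, had 1266, 1146, 1272 and 1374 normalized reads in shSRC1 replicates 1 to 4, against 1565, 1923, 1444 and 1992 in shNT replicates 1 to 4. All shSRC1 libraries lay below the lowest shNT library, and the shNT libraries split into 2 higher ones (replicates 2 and 4) and 2 lower ones. It averaged 1265 ± 93.2 in shSRC1 and 1731 ± 267 in shNT (SD, n = 4 each), and fell by 26.4%. BNIP3 had a log2 fold change of -0.44 (SE 0.11, 95% confidence interval -0.67 to -0.21, limma adjusted p = 0.00987; exact permutation p = 0.0286), with -0.53 to -0.37 over the alternatives. BNIP3L, the related receptor also called NIX, had 1303, 1386, 1498 and 1612 in the shSRC1 libraries, against 1603, 1749, 1334 and 1573 in the shNT libraries, which overlapped, with a log2 fold change of -0.11 (limma adjusted p = 0.446).

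VEGFA, the angiogenic growth factor, ranged over 3545 to 3951 in shSRC1 and 3361 to 3549 in shNT, and NDRG1, a stress-induced growth suppressor, over 1449 to 1743 and 1366 to 1565. The transcriptional repressor BHLHE40 ranged over 14035 to 15318 in shSRC1 and 12459 to 13507 in shNT, without overlap, and missed the threshold (log2 fold change 0.18, SE 0.08, limma adjusted p = 0.0961). Of the collagen prolyl 4-hydroxylase subunits, P4HA1 ranged over 1474 to 1942 in shSRC1 and 1682 to 2076 in shNT, and P4HA2 over 2161 to 2578 and 1795 to 2179.6. Their log2 fold changes had opposite signs, -0.20 and 0.19, and neither passed (limma adjusted p = 0.157 and 0.139). The share of P4HA1 in their joint reads per kb was 66.1% ± 3.81 in shSRC1 and 71.9% ± 0.966 in shNT (SD, n = 4 each), without overlap. The margin was narrow, with a highest shSRC1 share of 69.9% and a lowest shNT share of 70.5%.

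The vasodilator peptide gene ADM and the ankyrin repeat gene ANKRD37 had the fewest normalized reads of the tested members. ADM ranged over 50.7 to 93.0 in shSRC1 and 61.0 to 101 in shNT, and ANKRD37 over 60.8 to 80.6 and 58.5 to 99.5, so both overlapped. Their 95% confidence intervals, -0.74 to 0.23 and -0.61 to 0.23, were the widest of the 41. CA9, the carbonic anhydrase used as a marker of hypoxic tumour tissue, had 0 reads in all shSRC1 libraries and 2 reads in shNT. A count of 0 allows up to 3 reads per library, or 2.73 to 5.25 normalized reads in the shSRC1 libraries, so no difference in CA9 was detectable at this depth.

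Promoter sequence is shown for the 4 called genes because HIF binds DNA through the core ACGTG or GCGTG, and the genes differ in whether this core lies just before their start. Each line gives the stretch from 250 to 91 bases before the annotated start, 5′ to 3′ on the coding strand, from RefSeq on GRCh38.p14, with cores on either strand (CACGT and CACGC where the match lies on the other strand) in capitals. The palindrome CACGTG, the E-box letters bound by other factors too, holds the core on both strands. EPAS1 is at chr2:46297157-46297316 (+), EGLN3 at chr14:33951165-33951324 (-), PGK1 at chrX:78103998-78104157 (+) and BNIP3 at chr10:131982014-131982173 (-).
EPAS1: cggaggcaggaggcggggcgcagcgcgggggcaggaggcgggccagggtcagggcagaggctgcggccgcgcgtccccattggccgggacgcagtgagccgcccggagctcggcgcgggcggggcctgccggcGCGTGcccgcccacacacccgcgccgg
EGLN3: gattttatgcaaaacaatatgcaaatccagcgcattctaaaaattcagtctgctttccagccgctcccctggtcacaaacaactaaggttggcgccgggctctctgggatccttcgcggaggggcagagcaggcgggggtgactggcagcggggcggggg
PGK1: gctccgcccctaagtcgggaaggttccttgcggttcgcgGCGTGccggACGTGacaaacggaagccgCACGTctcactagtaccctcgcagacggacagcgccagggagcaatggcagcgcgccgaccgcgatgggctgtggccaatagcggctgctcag
BNIP3: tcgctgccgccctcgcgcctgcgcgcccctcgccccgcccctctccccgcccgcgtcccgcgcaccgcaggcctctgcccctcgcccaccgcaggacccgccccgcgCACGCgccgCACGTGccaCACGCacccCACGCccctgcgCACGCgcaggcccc

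In the whole window of 250 bases before the start, BNIP3 held 5 cores, the first base of the farthest 143 bases before the start and of the nearest 104, with the CACGTG counted as 1 core. PGK1 held 3, at 211, 202 and 183 bases before the start, and EPAS1 held 1, at 117. EGLN3 held none in this window. Of the 34943 distinct RefSeq windows, 43.2% held a core and 6.32% held CACGTG, so a single core is a common find, and 38 of the 67 distinct windows of the 37 members with an entry (56.7%) held one. A match says that the letters are present, not that HIF binds there, and the lower BNIP3 and the higher PGK1 both carry several.

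The transporters at the ends of the pathway showed no call. SLC2A1, the glucose transporter GLUT1, had 14204, 12699.9, 12016 and 11935 in the shSRC1 libraries, against 13747, 13249, 10871 and 12705 in the shNT libraries. The groups overlapped, and the log2 fold change of 0.01 (95% confidence interval -0.19 to 0.21) was below 0 in 8 of the 19 alternatives. SLC2A3, the high-affinity transporter GLUT3, had 7 reads in all shSRC1 libraries together and 8 in shNT, too few to test, so GLUT1 made up nearly all GLUT1 and GLUT3 reads. Of the lactate transporters, SLC16A1 (MCT1) ranged over 2186 to 2537 in shSRC1 and 1885 to 2501 in shNT. SLC16A3 (MCT4), the exporter of highly glycolytic cells, had 1121, 938, 839.7 and 867 in the shSRC1 libraries, against 1186, 1244, 924 and 1162 in the shNT libraries. Its shSRC1 replicates 1 and 2 and shNT replicate 3 fell inside the other group's range, and its log2 fold change was -0.26 (SE 0.11, limma adjusted p = 0.110). Without shNT replicate 3 it was -0.36, with a limma adjusted p of 0.0209.

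In the investment phase, 8 genes apart from TPI1 were tested, 3 had positive and 5 negative log2 fold changes, and none passed. With the correction for transcript length and GC content, 3 of the 8 passed as lower, HK1 at -0.17 (limma adjusted p = 0.0334), PFKP at -0.20 (limma adjusted p = 0.0162) and ALDOC at -0.28 (limma adjusted p = 0.0228). HK2, the inducible hexokinase of tumours, had 12431, 12261, 12215 and 12603 in the shSRC1 libraries, against 11489, 11184, 11302 and 10735 in the shNT libraries. The groups did not overlap, but the log2 fold change of 0.15 (SE 0.07) did not pass (limma adjusted p = 0.153). HK1, the housekeeping hexokinase, ranged over 13005 to 15499 in shSRC1 and 13905 to 15942 in shNT. HK2 made up 47.9% ± 1.73 in shSRC1 and 43.5% ± 1.49 in shNT of the hexokinase reads per kb (SD, n = 4 each), and shSRC1 replicate 1 and shNT replicate 3 overlapped.

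GPI, the glucose-6-phosphate isomerase, ranged over 28176 to 34142 in shSRC1 and 28633 to 33016 in shNT. Phosphofructokinase, the committed step, has 3 subunit genes. PFKL ranged over 19582 to 24492 in shSRC1 and 16313 to 20345 in shNT, PFKM over 7116 to 7659.7 and 6596 to 8118, and PFKP over 11179 to 13794 and 11590.0 to 13929.6. None of the 3 passed, and the shares of the 3 within the family were not tested. The liver subunit PFKL made up 40.4% ± 0.765 in shSRC1 and 36.2% ± 0.418 in shNT of their reads per kb, and the platelet subunit PFKP 42.3% ± 0.686 in shSRC1 and 46.1% ± 0.618 in shNT (SD, n = 4 each), both without overlap. PFKM, the muscle subunit, made up 17.3% ± 1.17 in shSRC1 and 17.7% ± 0.522 in shNT, with overlap. PFKP, like HK1, is a gene of chromosome 10, whose genes were lower as a whole. Whether the shares in these families go with position was not tested.

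Aldolase was almost all ALDOA, with 128683 to 159526 normalized reads in shSRC1 and 101824 to 132357 in shNT. ALDOC, the brain isoform, ranged over 399 to 471 in shSRC1 and 385 to 520.3 in shNT, and its share of aldolase reads per kb was 0.409% ± 0.0112 in shSRC1 and 0.518% ± 0.0150 in shNT, without overlap. The bifunctional enzymes that set fructose 2,6-bisphosphate, the activator of phosphofructokinase, were led by PFKFB3, with 2358 to 2621 in shSRC1 and 2396 to 2706 in shNT. PFKFB2 ranged over 997 to 1177 in shSRC1 and 1171 to 1289 in shNT, and PFKFB4 over 323 to 432 and 299.9 to 395. The 3 shared PFKFB reads per kb in similar proportions in both groups, PFKFB3 holding 70.2% ± 0.922 in shSRC1 and 70.1% ± 0.797 in shNT.

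**Figure D3:**
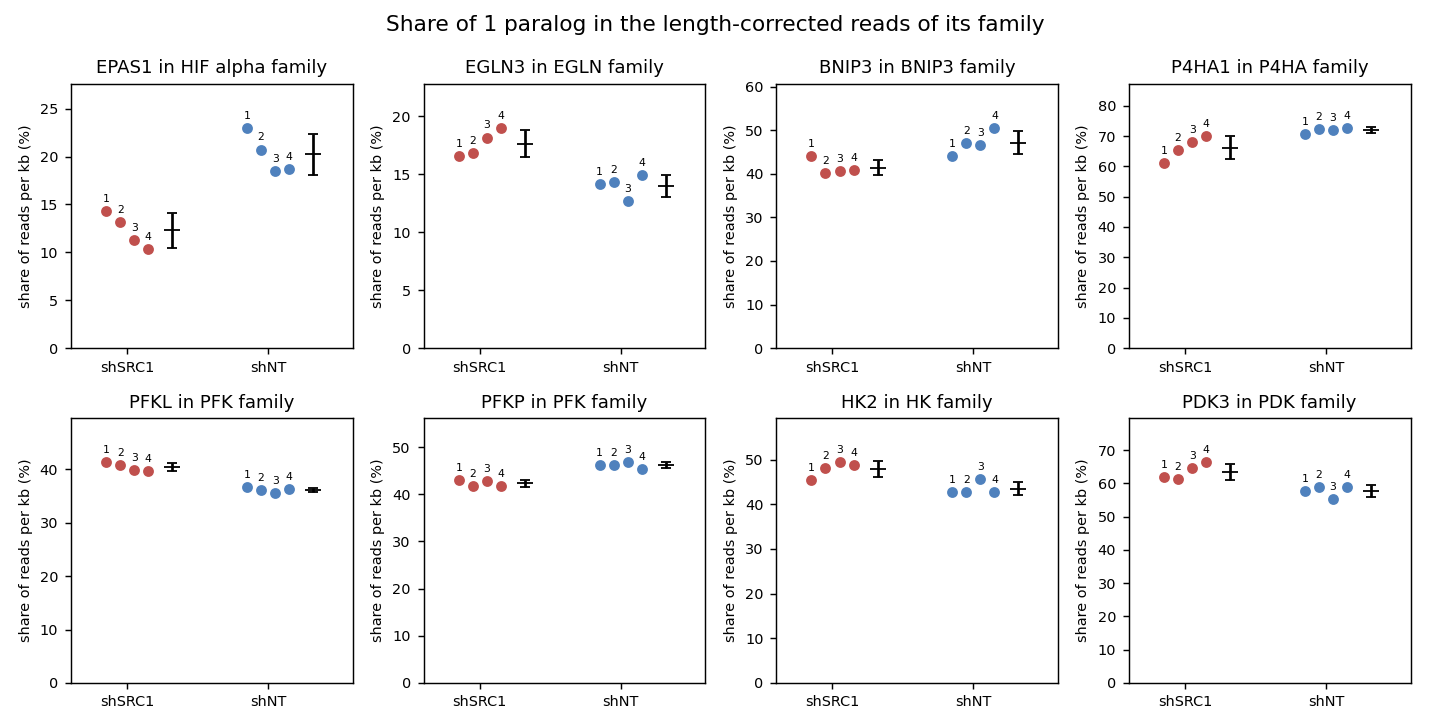
Share of 1 gene in the reads per kb of its family for 8 genes, in percent, per library (points, numbered by replicate) with mean ± SD. The shares of EPAS1, BNIP3, P4HA1 and PFKP are lower and those of EGLN3, PFKL and PDK3 higher in every shSRC1 library than in any shNT library. HK2 overlaps. Shares were not tested.

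In the payoff phase, with TPI1 counted in, 7 of 7 genes had positive log2 fold changes, with a median of 0.29, and PGK1 passed. PGK1 (ENSG00000102144, chromosome X), which makes the first ATP of this phase, had 30359, 29403, 28341 and 30294 normalized reads in shSRC1 replicates 1 to 4, against 21357, 24659, 16837 and 23454 in shNT replicates 1 to 4. The shSRC1 values were close together and all above the shNT values, among which replicate 3 was lowest. It averaged 29599 ± 946 in shSRC1 and 21577 ± 3442 in shNT (SD, n = 4 each), a rise of 38.5%. This gave a log2 fold change of 0.47 (SE 0.11, 95% confidence interval 0.24 to 0.70, limma adjusted p = 0.00706; exact permutation p = 0.0286), and 0.36 without shNT replicate 3 (limma adjusted p = 0.00138).

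GAPDH, the enzyme before PGK1 in the pathway and a common reference gene, had 163543, 146659.9, 145537 and 154404 in the shSRC1 libraries, against 128810.4, 137513, 91764 and 133402 in the shNT libraries. TPI1, which interconverts the triose phosphates, had 49526, 44870.3, 43854 and 46555 in the shSRC1 libraries, against 37104, 42303, 27142 and 40773 in the shNT libraries. In both genes all shSRC1 libraries exceeded all shNT libraries, and shNT replicate 3 stood well below the other 3 shNT libraries. The log2 fold changes were 0.33 for GAPDH (SE 0.12, limma adjusted p = 0.0649) and 0.35 for TPI1 (SE 0.12, limma adjusted p = 0.0536), just short of the threshold. Without shNT replicate 3 both values were smaller, 0.19 for GAPDH and 0.21 for TPI1, while both passed (limma adjusted p = 0.0331 and 0.0372).

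ENO1, the main enolase, had 103999.7, 91593, 91009 and 92824 in the shSRC1 libraries, against 81636, 87520.4, 60131 and 84501 in the shNT libraries, again without overlap and again with shNT replicate 3 lowest (log2 fold change 0.29, SE 0.12, limma adjusted p = 0.0869). PKM, pyruvate kinase, had 91015, 78965, 77818 and 78162 in the shSRC1 libraries, against 76714, 76959, 61106 and 74980.4 in the shNT libraries, without overlap (log2 fold change 0.17, limma adjusted p = 0.222). The deposited values count genes, so the M1 and M2 isoforms of PKM were not separated. PGAM1, a phosphoglycerate mutase gene on chromosome 10, ranged over 19376 to 20828 in shSRC1 and 15005 to 21387 in shNT, and the neuronal enolase ENO2 over 3599.5 to 3929.6 and 3489 to 3756. Both overlapped, with log2 fold changes of 0.06 and 0.05. Without shNT replicate 3, 6 of the 7 payoff genes were positive, with a median of 0.16, and 3 passed; PGAM1 was then at -0.06. With the correction for length and GC content 5 of the 7 were positive, with a median of 0.19, and PGK1 passed.

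For the fate of pyruvate, 4 of 5 genes were tested and none passed. LDHA, which makes lactate, ranged over 35782 to 41617 in shSRC1 and 30009 to 40208 in shNT (log2 fold change 0.06, limma adjusted p = 0.700). LDHB, the subunit favouring pyruvate formation, had 7 reads in all shSRC1 libraries and 16 in shNT, of which 11 were in replicate 3, so the lactate dehydrogenase transcripts of these cells were almost all LDHA. The kinases that switch off pyruvate dehydrogenase were PDK1 with 415 to 526 in shSRC1 and 405 to 537 in shNT, PDK2 with 919 to 1147 and 980.4 to 1192, and PDK3 with 1906, 1800.3, 1809 and 1979 in the shSRC1 libraries and 1642, 1769, 1314 and 1659 in the shNT libraries. PDK1 and PDK2 overlapped, and PDK3 did not (log2 fold change 0.24, SE 0.10, limma adjusted p = 0.0840). PDK3 made up 63.5% ± 2.35 in shSRC1 and 57.7% ± 1.71 in shNT of the reads per kb of these kinases, and PDK2 31.1% ± 2.76 in shSRC1 and 36.5% ± 1.01 in shNT (SD, n = 4 each), both without overlap.

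Levels per kb spanned the group widely. GAPDH was the most abundant, with 51169 normalized reads per kb in shSRC1 and 41219 in shNT, followed by ALDOA with 35416 and 31448, ENO1 with 17979 and 14869, and TPI1 with 17112 and 13641. ENO1 and TPI1 were close to each other in this order. At the low end of the tested genes stood PDK1 with 31.8 and 32.1, ANKRD37 with 27.9 and 32.2, and ADM with 25.2 and 29.7, the last pair close together. Of the 4 called genes only PGK1 was abundant, in place 8 of 44, while BNIP3, EPAS1 and EGLN3 were in places 27, 31 and 37.

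Some libraries carried much of the variation among the 41 genes. The library of shNT replicate 3 had the lowest value of all 8 in 22 of the 41 genes, including 6 of the 7 payoff genes, whose median deviation from the mean of all libraries was -0.51 there on the log2 scale. In the other shNT libraries that median was -0.07, 0.02 and -0.03, and in shSRC1 replicates 1 to 4 it was 0.27, 0.10, 0.09 and 0.11. The library of shSRC1 replicate 1 had the highest value in 16 of the 41. Without shNT replicate 3 the median log2 fold change of the 41 genes was -0.00, against 0.05 with all libraries, and 7 genes passed, against 4. In that fit 17.1% of the members passed beside 21.3% of all genes, and with all libraries 9.76% beside 23.2%. By GC content shSRC1 replicate 1 stood apart from the other libraries, and shNT replicate 3 did not. Across 18787 genes, the deviation of a gene from its mean over the libraries was correlated with transcript GC content at a Spearman's rho of 0.48 for shSRC1 replicate 1, which was highest, and -0.22 for shNT replicate 3, while the remaining 6 libraries ran from -0.22 to 0.19. With transcript length it was 0.11 in shNT replicate 3, the highest of the 8, and between -0.17 and 0.09 in the others. Genes are not independent replicates, and the part of this in the members' values was not tested beyond the correction for length and GC content.

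**Figure D4:**
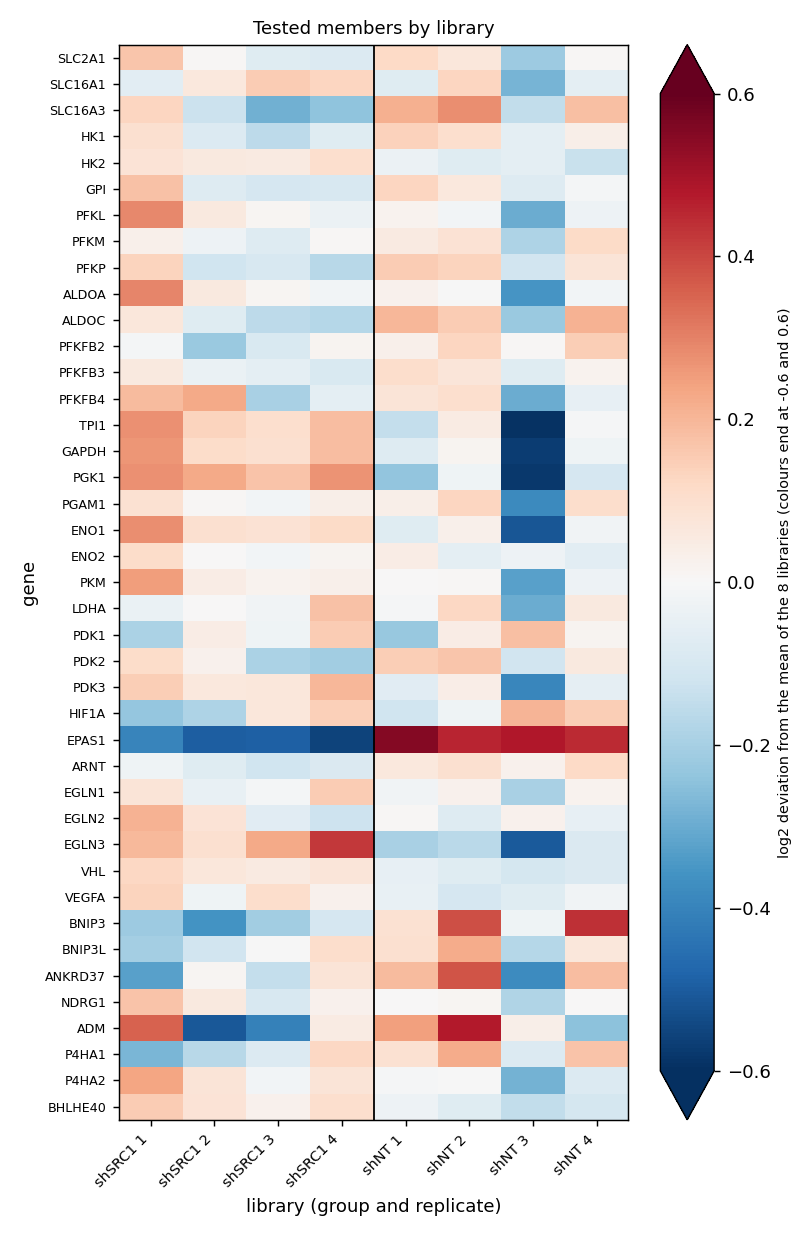
Log2 deviation of each of the 41 tested genes from its mean over the 8 libraries (columns, shSRC1 replicates 1 to 4 and then shNT replicates 1 to 4), red above and blue below the mean, with colours ending at -0.6 and 0.6. The EPAS1 row splits by group, and the column of shNT replicate 3 is blue for most glycolytic genes and darkest from TPI1 to ENO1.

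Position on the chromosomes was compared because genes of chromosome 10 were lower in shSRC1 as a whole, with a median log2 fold change of -0.20 over 525 tested protein-coding genes, of which 35.6% passed as lower. Of the 41 genes, 6 lie on chromosome 10 (HK1, PFKP, PFKFB3, PGAM1, P4HA1 and BNIP3), and 5 of them had negative log2 fold changes. The up to 20 tested protein-coding genes on either side had median log2 fold changes of -0.28 around HK1, -0.19 around PFKP, -0.19 around PFKFB3, -0.15 around PGAM1, -0.18 around P4HA1 and -0.19 around BNIP3. For P4HA1 the gene's own value, -0.20, was close to that of its surroundings. BNIP3, at -0.44, was below its surroundings, where 9 of 38 neighbours passed as lower and 0 as higher. How much of the fall of BNIP3 goes with its surroundings was not tested.

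EPAS1 did not share its fall with its neighbours, whose median was -0.04, with 3 of 40 higher and 3 lower. Chromosome 2 as a whole had a median of -0.08 over 950 tested protein-coding genes, of which 18.5% passed as lower. Over all genes tested, 12.0% passed as higher and 11.2% as lower. Around PGK1 the median was 0.03, with 9 of 40 higher and 6 lower. Around EGLN3 it was 0.11, with 11 of 40 higher and 0 lower, so that EGLN3, at 0.47, lay among mildly higher genes. On chromosome 17, whose genes were higher as a whole (median 0.14, with 207 of 820 protein-coding genes passing as higher), the 3 members SLC16A3, ALDOC and PDK2 had negative values, -0.26, -0.17 and -0.13, and none passed.

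**Figure D5:**
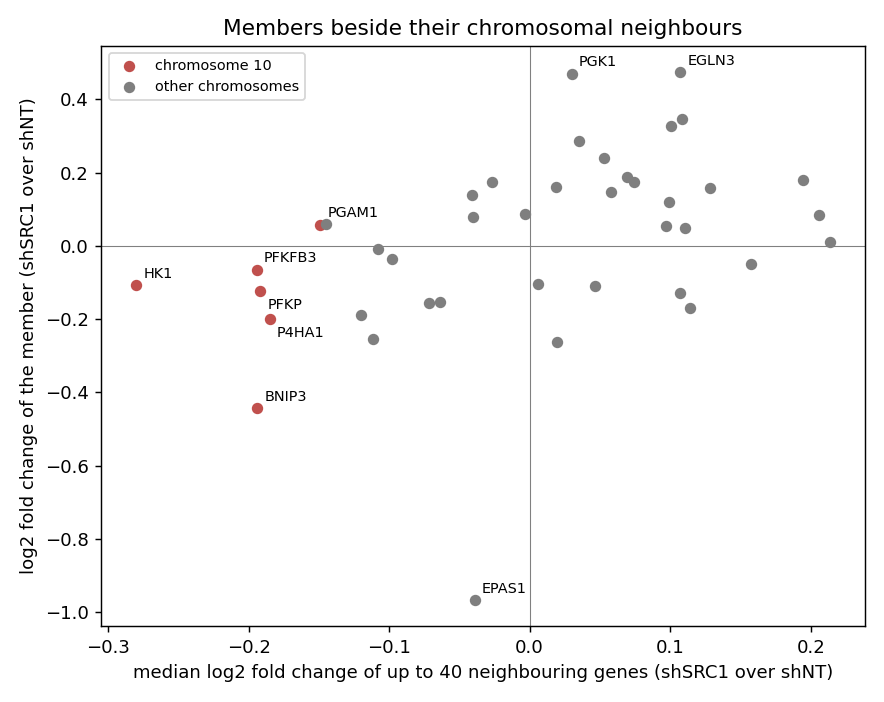
Log2 fold change of each tested gene (shSRC1 over shNT) against the median of up to 40 neighbouring protein-coding genes. The 6 genes of chromosome 10 (red) lie left of 0, EPAS1 lies far below a neighbourhood near 0 (-0.04), and PGK1 lies far above one (0.03).

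Other genes of the same pathways were read in the same fit, from lists made by role with earlier results of these data known. Of 17 tested genes of the HIF machinery beyond the members, 4 rose and 1 fell, a share of 29.4% beside 23.2% of all genes. CITED2, which competes with HIF-1α for the coactivators CBP and p300, had 3068, 2927, 3076 and 2966 in the shSRC1 libraries, against 1435, 1527, 1118 and 1376 in the shNT libraries. The shSRC1 libraries all had more than the highest shNT library by a wide margin, and CITED2 rose by 1.15 (SE 0.10, limma adjusted p = 1.21e-06) while its neighbours on chromosome 6 had a median of -0.06. ARNT2, a beta subunit related to ARNT, averaged 2207 ± 88.1 in shSRC1 and 1448 ± 106 in shNT (SD, n = 4 each), a log2 fold change of 0.61 (limma adjusted p = 1.27e-04), opposite in sign to ARNT. The cullin CUL2, a scaffold of the VHL ubiquitin ligase on chromosome 10, fell by 0.41 (limma adjusted p = 0.0108), and the circadian factor ARNTL rose by 0.32 (limma adjusted p = 0.0203), a call lost in 4 of the 19 alternatives, where the adjusted p reached 0.0640. The lysine demethylase KDM1A also rose, by 0.23 (limma adjusted p = 0.0449). HIF1AN, which hydroxylates HIF-α at an asparagine, and the coactivators EP300 and CREBBP did not pass, with log2 fold changes of -0.11, -0.20 and -0.03.

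Of 46 tested further HIF targets, 12 rose and 8 fell, or 43.5% beside 23.2% of all genes, with a median log2 fold change of 0.03. The 4 with the smallest adjusted p all rose, the glycoprotein hormone genes STC2 and STC1, the mTORC1 inhibitor DDIT4 and the EGFR ligand TGFA. STC2 averaged 28825 ± 1233 in shSRC1 and 12374 ± 905 in shNT (SD, n = 4 each, log2 fold change 1.22), and STC1 86.0 ± 7.61 and 31.6 ± 2.76 (log2 fold change 1.42). DDIT4 had a log2 fold change of 1.64 and TGFA one of 0.65 (limma adjusted p = 0.00146). Among those that fell were SPAG4 (-0.96), HMOX1 (-0.46) and PLOD2 (-0.33), named after their values were seen. Many of these genes respond to other signals too, and the list moved in both directions. Which signal moved them was not tested.

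Of 20 tested genes on a further list around glycolysis, 5 rose and 2 fell, or 35.0% beside 23.2% of all genes. Not all genes on it are glycolytic, and the mitochondrial PGAM5 and LDHD are among the 5 that rose. The mitochondrial phosphatase PGAM5, whose name recalls phosphoglycerate mutase, averaged 9265 ± 873 in shSRC1 and 6390.0 ± 851 in shNT (SD, n = 4 each, log2 fold change 0.54, limma adjusted p = 0.00238). LDHD, a mitochondrial D-lactate dehydrogenase, rose by 0.73 and TIGAR, a fructose bisphosphatase induced by p53, by 0.36 (limma adjusted p = 0.00585 and 0.0161), the call on TIGAR being lost in 1 of the 19 alternatives. SLC16A7, the monocarboxylate transporter MCT2, had 12.3, 3.50, 12.7 and 5.50 in the shSRC1 libraries, against 26.9, 32.0, 27.9 and 17.9 in the shNT libraries, a low-level transcript that fell by 1.64 on the log2 scale (limma adjusted p = 0.0107).

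Downstream, 3 of 13 genes of pyruvate entry into mitochondria rose and none fell, or 23.1%, close to the 23.2% of all genes. PCK2, mitochondrial phosphoenolpyruvate carboxykinase, averaged 10085 ± 945 in shSRC1 and 6396 ± 749 in shNT (SD, n = 4 each, log2 fold change 0.66, limma adjusted p = 3.61e-04). PDP2, the phosphatase that reactivates pyruvate dehydrogenase, rose by 0.34 (limma adjusted p = 0.00912), and the pyruvate carrier subunit MPC2 by 0.35 (limma adjusted p = 0.0289), a call lost in 5 of the 19 alternatives. Of 15 genes of the citric acid cycle, DLST and SUCLG2 rose by 0.38 and 0.41 (limma adjusted p = 0.00560 and 0.0132) and none fell, or 13.3%. Positive values were found in 13 of the 15, beside 49.8% of all genes tested. Of 10 genes of the pentose phosphate pathway and ribose phosphate use, PRPS2 rose by 0.51 (limma adjusted p = 0.00146) and none fell, or 10% beside 23.2% of all genes.

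Glycolytic genes have many processed copies in the genome, so their counts depend on how reads were assigned. The table held 107 rows for pseudogenes of 15 members and 8 antisense rows, of which 9 and 4 had enough reads to be tested. BNIP3P1, a pseudogene of BNIP3 on chromosome 14 with 15.4% as many reads as BNIP3, had 185, 220.4, 211 and 203 in the shSRC1 libraries, against 271, 260.3, 239 and 277 in the shNT libraries. It fell by 0.35 on the log2 scale (limma adjusted p = 0.0433), in the direction of BNIP3, and its reads and those of BNIP3 may be shared. The rows of TPI1P1 and LDHAP4, pseudogenes of TPI1 and LDHA, and of PGAM4, a copy of PGAM1, were highest in shSRC1 replicate 2, where the parent genes were not. Antisense rows held at most 2.13% as many reads as their members, SLC16A1-AS1 being the largest share, and none passed; the sources used here do not say that counting used strand.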

How the data were processed

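RNA of LY2 cells captured with oligo(dT) was sequenced in 8 libraries, 4 per group, grouped by the hairpin and replicate given in the labels. The submitters' processing notes name the build GRCh37 and the tools TopHat2 (version 2.0.12), HTSeq (version 0.6.1), DESeq and DESeq2. The authors deposited 1 table of size-factor normalized read signal per gene. In each library the values were whole multiples of 1 step (100% within 0.001 reads), which gave back whole reads; at these depths 3 reads equal 2.67 to 5.25 normalized reads. Floors cover counting error only.

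The 44 members and the other gene lists were chosen with earlier results of these data known. Log2(value + 1) was tested with limma (version 3.58.1, R 4.3.3) using trend and robust variances, for genes that reached 10 normalized reads in 4 or more libraries, two-sided, Benjamini-Hochberg adjusted over 19559 genes at a threshold of 0.05. Fold changes are on that scale, which understates low genes. Single values had exact permutation tests. The method was tested on simulated data with far fewer changed genes than were called here. Those data held no library effects of GC content or length, so that test does not cover such effects. Alternatives were edgeR 4.0.16 and DESeq2 1.42.0 on recovered reads, scaling by TMM or upper quartile, the minimum dropped or set at 50, a pseudocount of 0.5 or 5, a replicate block, libraries left out, and correction for transcript length and GC content. Of the other lists, up to 4 called genes each with the smallest adjusted p were named; KDM1A, HIF1AN, EP300, CREBBP and the falling HIF targets were named after their values were seen. GENCODE 29 (GRCh38) gave exon lengths, chromosomes and gene order by identifier, and RefSeq on GRCh38.p14 the promoters, for 37 of 44 members; no position was converted between builds. Where a symbol had a second row, that row held 0 reads. Of the other lists, 2 entries were not matched.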

Additional observations from a re-analysis of the deposited data

Results flagged for a closer look

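In 11 of 120 groups of 4 libraries, 1 library stood apart from the other 3 by Dixon's test at the 95% level, where chance gives about 1 group in 20. The library of shSRC1 replicate 1 was high in GPI (34142 normalized reads, the nearest 28643), ENO1 (103999.7 normalized reads, the nearest 92824), PKM (91015 normalized reads, the nearest 78965) and PCK2 (11487 normalized reads, the nearest 9812). The library of shNT replicate 3 was low in ALDOA (101824 normalized reads, the nearest 128520.4), ALDOC (385 normalized reads, the nearest 499), PKM (61106 normalized reads, the nearest 74980.4), NDRG1 (1366 normalized reads, the nearest 1554) and PGAM5 (5118 normalized reads, the nearest 6716). ARNT2 was high in shNT replicate 2 (1606 normalized reads, the nearest 1409), and PDP2 in shNT replicate 1 (965 normalized reads, the nearest 907). Of these genes, ARNT2, PGAM5, PCK2 and PDP2 passed the threshold, and none of their groups overlapped.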

How the results depend on the processing

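The calls on EPAS1, PGK1, EGLN3 and BNIP3 held in all 19 alternatives, and NCOA1 stayed past the threshold, between -1.15 and -1.069. Of 1120 values of single genes, 1058 kept direction and side, 29 newly passed, 10 no longer passed and 23 changed sign. The count of members called was 4, and became 7 (5 higher, beside 24.9% of all genes) with upper-quartile scaling, 8 (5 higher, beside 27.1%) with DESeq2 and 9 (6 lower, beside 30.0%) with the correction for length and GC content; with no filter it was 6 (4 higher, beside 9.90%). With 1 library left out it was 4 to 7, with 2 to 4 higher, beside 16.2% to 24.6% of all genes. Of all genes, 2194 were lower, and 1453 to 2291 with 1 library left out, fewest without shSRC1 replicate 2. The labels give no pairing, so the replicate numbers were not used as pairs in the main fit. Same-numbered libraries correlated at 0.24, -0.01, 0.13 and 0.14, each shSRC1 library best with its own number except replicate 2. Whether the numbers mark pairs was not tested further. With the replicate number as a block, 10 members were called, 7 of them higher, beside 32.7% of all genes; added were ENO1, GAPDH, P4HA2, PDK3, SLC16A3 and TPI1. Sign changes were in genes near 0. SLC2A1 was at -0.00108 with TMM, -0.00427 with upper-quartile scaling, -0.00224 with edgeR, -0.000727 with DESeq2, -0.0473 with the length and GC correction and -0.0613 when shNT replicate 3 and shSRC1 replicate 2 were both left out. Leaving both out gave -0.0631 for PFKFB4, -0.0525 for PGAM1, -0.0212 for LDHA and 0.0333 for PDK1, and the length and GC correction -0.0576 for PGAM1, -0.0273 for ENO2, 0.154 for PDK1 and 0.0573 for HIF1A. With 1 library left out, ranges were -0.0606 to 0.0522 for SLC2A1, -0.0857 to 0.0524 for PDK1, -0.0134 to 0.0974 for EGLN2, -0.00107 to 0.162 for PFKFB4, -0.0599 to 0.111 for PGAM1 and -0.0297 to 0.111 for LDHA. The causes were not tested. Depth limits CA9, SLC2A3 and LDHB.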

Other observations

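Of the 9 tested pseudogene rows of members, TPI1P1 and LDHAP4 alone were highest in shSRC1 replicate 2. The others peaked elsewhere, for example PGAM1P7 in shNT replicate 3 (164), BNIP3P1 in shNT replicate 4 (277) and GAPDHP21 in shSRC1 replicate 3 (30.9). TPI1P1 had 33.2, 287, 28.2 and 29.3 normalized reads in shSRC1 replicates 1 to 4, against 16.7, 16.9, 19.5 and 30.5 in shNT replicates 1 to 4. LDHAP4 had 643, 1408, 701 and 738 in the shSRC1 libraries, against 683, 735, 557 and 745 in the shNT libraries. Replicate 2 of shSRC1 was thus the highest of all 8 in both, and neither row passed the threshold (limma adjusted p = 0.201 and 0.374). The PGAM4 row, a retrogene copy of PGAM1, had 796, 1422, 697 and 803 in the shSRC1 libraries, against 558, 668, 511 and 719 in the shNT libraries.

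Across the table, peaks of processed pseudogenes were also uneven between libraries. Of 959 tested processed pseudogenes of all genes, 46.4% had their highest value in shSRC1 replicate 2, and 27.8% in shNT replicate 3. Processed pseudogenes took 2.30% of the reads of shSRC1 replicate 2, 1.56% to 1.67% in the other shSRC1 libraries and 1.07% to 1.37% in the shNT libraries. The parent genes TPI1, LDHA and PGAM1 were not highest in shSRC1 replicate 2.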
